A study of Mus musculus with 4 samples.

Results

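The transcripts described are those of NRF2 (gene Nfe2l2), its inhibitor KEAP1 (Keap1) and 7 genes that NRF2 is known to activate, namely Gclc, Gclm, Srxn1, Txnrd1, Nqo1, Hmox1 and G6pdx. They were chosen by symbol, and all 9 were found, each as 1 of the 24138 rows of the deposited table. Bulk RNA sequencing of poly(A)-enriched libraries was done on liver tissue from 4 mice (C57BL/6J males, 18 weeks old). Every animal had received the FAT-MASH diet and resolvin D1 (RvD1). MASH is metabolic dysfunction-associated steatohepatitis, and RvD1 is a lipid mediator of the resolution of inflammation. The mice form 1 group, called livers 1 to 4 after the labels. Since no animals without RvD1 or without the diet were analysed here, no effect of either can be read from these values, and what follows describes the levels and how far they varied between animals. Levels are in FPKM, fragments scaled for transcript length and for the size of the library, so they can be compared between genes. Estimated depth was between 17.6 and 19.6 M fragments per library (M, mega), and the summed FPKM was between 516816 and 570681. All 7 hepatocyte marker genes examined were expressed, with a summed level between 18732 and 23773 FPKM. Alb, the most familiar hepatocyte transcript, was listed at 0 in all 4 livers, and a zero of this kind can be a failed estimate. Of the 9 members, 0 were listed at 0 in any liver.

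NRF2 is a transcription factor that is made continuously and, in unstressed cells, is bound by KEAP1 and passed to a CUL3 ubiquitin ligase for degradation. Electrophiles and oxidants modify cysteines of KEAP1, NRF2 then accumulates, pairs with a small MAF protein and binds antioxidant response elements in its target genes. The targets supply glutathione, reduced thioredoxin, NADPH and enzymes that remove quinones and haem, and in liver they are known for protecting hepatocytes against reactive drug metabolites. Much of this control acts on the NRF2 protein, which RNA levels do not measure.

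The antioxidant response element has the core letters TGACNNNGC, and a looser form is TGANNNNGC, which takes in every match of the first. Both were searched on both strands in the 250 bases before each RefSeq start site (GRCm38.p6). The sequence table matched 7 of the 9 genes, with 9 start sites. The strict core was found at 4 of the 9 start sites, 1 each of Nfe2l2, Gclm, Txnrd1 and G6pdx, and in 10.2% of all 32851 promoters. The looser form was found at 7 of the 9 start sites, belonging to 6 of the 7 genes (all but Nqo1), and in 35.2% of all promoters. The strict matches are shown because they hold the core that NRF2 with a small MAF protein is known to bind, and the looser matches of Srxn1 nearest to and farthest from its start site as examples from the start site with the most matches. The other looser matches, of Keap1, of another Txnrd1 start site and the middle one of Srxn1, meet the same looser pattern and are not shown. A match is a description of letters and not of binding, and no match says only that the letters are not in this window. Each line is written 5′ to 3′ on the strand of the gene, with the match in capitals. Where the element lies on the other strand, the capitals hold its reverse complement.
Nfe2l2, chr2:75704885-75704913, minus strand: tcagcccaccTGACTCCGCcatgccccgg
Gclm, chr3:122245413-122245441, plus strand: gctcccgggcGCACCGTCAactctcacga
Txnrd1, chr10:82859104-82859132, plus strand: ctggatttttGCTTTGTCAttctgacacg
G6pdx, chrX:74428919-74428947, minus strand: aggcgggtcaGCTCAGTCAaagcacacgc
Srxn1, looser form, chr2:152105469-152105497, plus strand: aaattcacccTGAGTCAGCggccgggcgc
Srxn1, looser form, chr2:152105356-152105384, plus strand: tctactgagaGCCGACTCAtcctctctgg
The Gclm match lies between 134 and 126 bases before the start site, that of G6pdx between 57 and 49, and that of Nfe2l2 between 240 and 232. Of the 3 Txnrd1 start sites in the table, the strict match belongs to the one at 82859206, between 92 and 84 bases before it. Srxn1 has 3 matches of the looser form, more than any other start site of these genes. The one nearest the start, between 45 and 37 bases before it, also holds TGANTCA, the core bound by AP-1 factors, which was found on 1 of the 9 start sites and in 6.75% of all promoters.

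Nfe2l2 itself (XLOC_012375, chromosome 2, 75675519 to 75704641, mm10) was among the more abundant of the set, at 41.5, 37.6, 35.2 and 35.7 FPKM in livers 1 to 4. Liver 1 was highest and the other livers lay close together, so that the highest liver exceeded the lowest 1.18-fold (mean 37.5 ± 2.87 FPKM, SD, n = 4). Keap1 (XLOC_022423, chromosome 9, 21229730 to 21239332) was at 19.7, 19.9, 18.3 and 23.7 FPKM, with liver 4 highest. Its mean was 20.4 ± 2.35 FPKM (SD, n = 4), and the ranges of the factor and its inhibitor did not overlap. The ratio of Nfe2l2 to Keap1 was 2.11, 1.90, 1.93 and 1.503 in livers 1 to 4, lowest in liver 4. An antisense gene, Gm16754, overlaps exons of Keap1 in GENCODE vM21, and the sources used here do not say whether the counting used strand.

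The first and rate-limiting step of glutathione synthesis is carried out by glutamate-cysteine ligase, whose catalytic subunit is encoded by Gclc and whose modifier subunit is encoded by Gclm. These were the most abundant transcripts of the set. Gclc (XLOC_022081, chromosome 9, 77754535 to 77794489) was at 87.3, 89.3, 60.7 and 89.99 FPKM in livers 1 to 4. Livers 1, 2 and 4 were nearly equal, and liver 3 lay 30.5% below the next lowest (mean 81.8 ± 14.1 FPKM, SD, n = 4). Gclm (XLOC_013517, chromosome 3, 122245557 to 122267215) was at 57.4, 70.4, 52.7 and 68.6 FPKM. Liver 3 was again lowest, but livers 1 and 3 both lay below livers 2 and 4, and no liver stood apart (mean 62.3 ± 8.56 FPKM, SD, n = 4). The catalytic subunit was the higher one in 4 of 4 livers, with a ratio of 1.52, 1.27, 1.15 and 1.31 in livers 1 to 4, although the ranges of the subunits over the livers overlapped.

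Srxn1 encodes sulfiredoxin, which restores over-oxidised peroxiredoxins, and Txnrd1 encodes the cytosolic thioredoxin reductase, a selenoprotein that keeps thioredoxin reduced with NADPH. Srxn1 (XLOC_011826, chromosome 2, 152105524 to 152111376) was at 22.3, 16.05, 16.2 and 17.9 FPKM in livers 1 to 4, 1.24-fold higher in liver 1 than in the next liver (mean 18.1 ± 2.90 FPKM, SD, n = 4). Txnrd1 (XLOC_001688, chromosome 10, 82833951 to 82897724) was at 39.5, 43.9, 38.1 and 43.99 FPKM. It was the steadiest of the 9, with a highest to lowest ratio of 1.15 (mean 41.4 ± 3.02 FPKM, SD, n = 4). Its deposited span is shared with Eid3, which was listed between 0 and 0.277 FPKM.

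Nqo1 encodes a quinone reductase and is widely used as a readout of NRF2. It was at 6.63, 5.08, 4.41 and 4.97 FPKM in livers 1 to 4, so it was lower than every other member except G6pdx. Liver 1 exceeded the next liver 1.30-fold (mean 5.27 ± 0.949 FPKM, SD, n = 4). The span given for Nqo1 (XLOC_021525, chromosome 8, 107256164 to 107558595) is 302432 bases long and is given to 5 other genes as well, whereas the annotated gene occupies 14982 bases (107388225 to 107403206). Among those sharing it, Wwp2 was at 7.02, 5.85, 7.08 and 7.95 FPKM and Nob1 at 3.12, 5.39, 4.37 and 3.79 FPKM, neither highest in liver 1. Nfat5, at 1.88, 1.83, 1.75 and 1.14 FPKM, was highest in liver 1 as Nqo1 was. The annotated Nqo1 overlaps 0 other genes in GENCODE vM21.

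Hmox1 encodes haem oxygenase 1, the inducible enzyme that opens the haem ring, and is known to be high in Kupffer cells and other macrophages that take up red cells. Hmox1 (XLOC_020791, chromosome 8, 75093618 to 75100593) was at 12.1, 12.5, 8.50 and 12.5 FPKM in livers 1 to 4. Here too the other 3 livers lay close together, and liver 3 was 29.6% below the next lowest (mean 11.4 ± 1.94 FPKM, SD, n = 4). G6pdx encodes glucose-6-phosphate dehydrogenase, which forms NADPH at the entry of the pentose phosphate pathway, and it was the lowest of the 9. It was at 3.10, 3.86, 3.13 and 3.78 FPKM, with livers 2 and 4 above livers 1 and 3 (mean 3.47 ± 0.411 FPKM, SD, n = 4). Its span (XLOC_023785, chromosome X, 74393291 to 74453778) is also that of Ikbkg, which lies on the opposite strand and shares 0 exonic bases with it. G6pd2, an intronless copy of G6pdx, was listed at 0 in all 4 livers, so how reads were divided between the copies cannot be judged from the table.

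**Figure D1:**
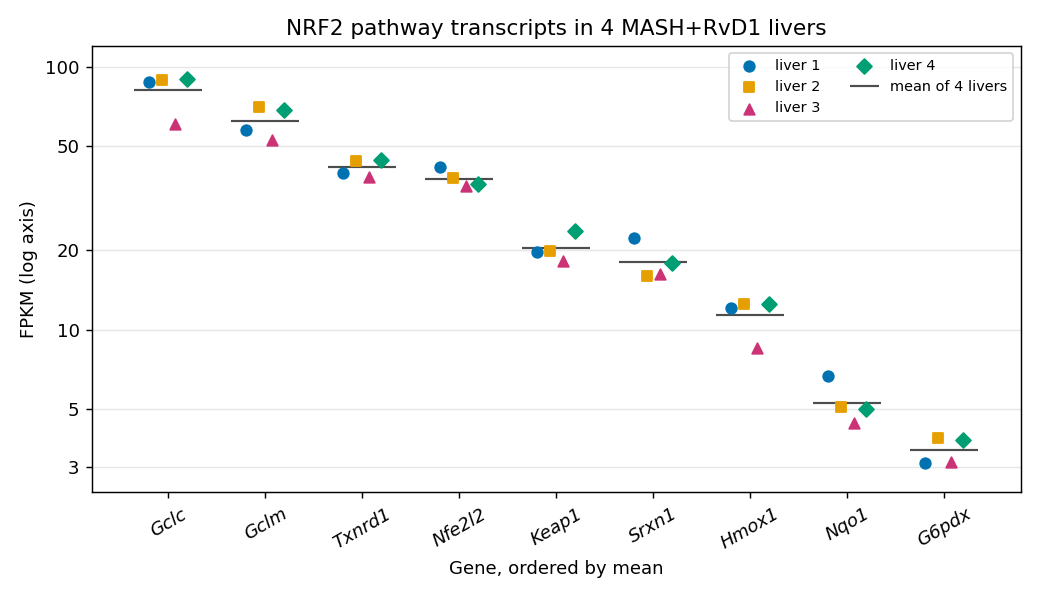
Level of each transcript in FPKM on a log axis, with genes ordered by mean along the x axis. Symbols are the 4 livers and the horizontal line is their mean. Liver 3 is the lowest liver for 7 of the 9 genes, and the gap below the other livers is widest for Gclc and Hmox1.

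By mean level the order was Gclc, Gclm, Txnrd1, Nfe2l2, Keap1, Srxn1, Hmox1, Nqo1 and G6pdx, spanning from 81.8 to 3.47 FPKM. For 6 of the 8 neighbouring pairs the gene with the higher mean was higher in 4 of 4 livers, and for 5 of the 8 the ranges did not overlap. Txnrd1 and Nfe2l2, and likewise Keap1 and Srxn1, kept their order in 3 of 4 livers, so neither pair differed beyond its spread. Gclc and Gclm overlapped in range although their order held in every liver. An exact two-sided sign-flip permutation test over 4 livers cannot go below p = 0.13 and so cannot pass 0.05. The adjusted p by this permutation test over the 8 pairs was between 0.167 and 0.375. The counting behind these levels was uneven. At the estimated depth Gclc rested on about 3743 to 5525 fragments per liver, Nqo1 on about 114 to 175, G6pdx on about 147 to 182 and Hmox1 on about 223 to 328. The liver-to-liver differences of Nqo1 and G6pdx are therefore the least precise.

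All 9 transcripts had a mean of at least 1 FPKM, a level reached by 43.7% of the rows of the table. The spread between animals was taken as the SD of log2(FPKM + 1), and its median over the 9 genes was 0.20, against 0.16 over all 10541 expressed genes. The direction of this difference did not hold throughout. It was 0.17 against 0.18 with libraries scaled to equal sums, 0.13 against 0.17 without liver 1, and 0.136 against 0.139 without liver 3. The members covered most of the range of ordinary genes. Gclc had the largest SD, 0.27, which is at percentile 86.2 of expressed genes, followed by Hmox1 with 0.25 at percentile 81.1. Nqo1 and Srxn1 had an SD of 0.21 each and Gclm 0.20. Keap1 (0.15), G6pdx (0.13), Nfe2l2 (0.11) and Txnrd1 (0.10) were below the median of expressed genes, and Txnrd1 was at percentile 20.5. A single liver set several of these values. Without liver 3 the SD fell to 0.02 for Gclc and to 0.03 for Hmox1. Without liver 1 it was 0.09 for Nqo1, 0.08 for Srxn1 and 0.05 for Nfe2l2, and without liver 4 it was 0.06 for Keap1. A ratio of at least 1.5 between the highest and the lowest liver was reached by 1 of the 9, Nqo1 with 1.502, and by 28.4% of expressed genes. Nqo1 lies on that threshold. Its ratio was 1.494 with libraries scaled by their median ratio and 1.48 with equal sums, where 0 of the 9 reached 1.5 against 28.2% and 33.5% of expressed genes. The count was also 0 without liver 1 and without liver 3, against 22.9% and 16.4% of expressed genes.

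**Figure D2:**
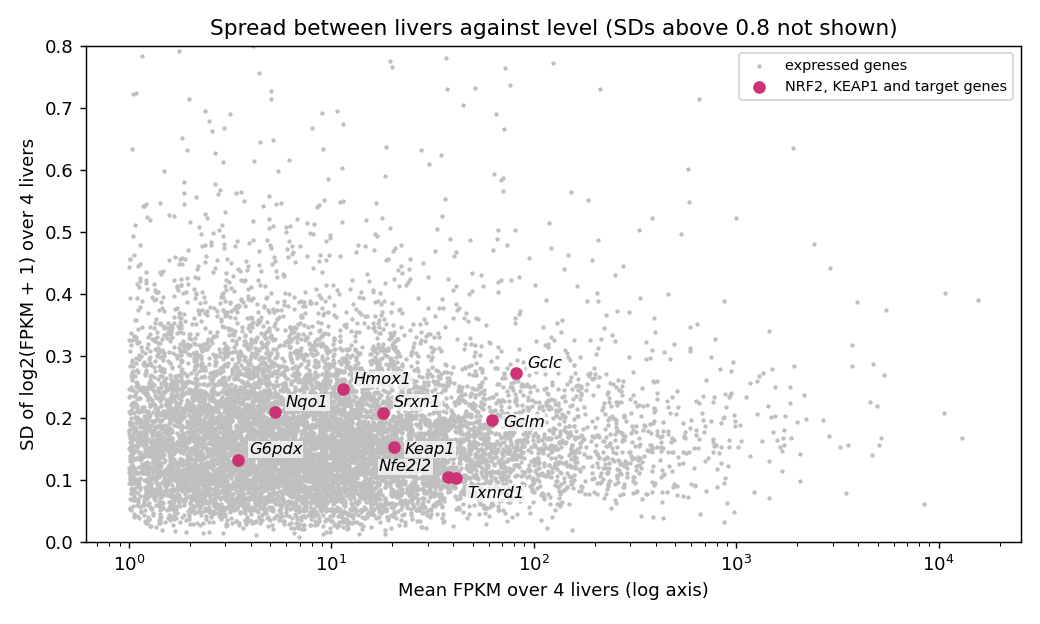
SD of log2(FPKM + 1) over the 4 livers against mean FPKM on a log axis. Each grey point is an expressed gene and the coloured points are the 9 genes described, which run from 0.10 for Txnrd1 to 0.27 for Gclc and lie within the cloud of other genes of like level.

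Liver 3 had low values throughout the set. Of the 9 transcripts, 0 were above their own mean in liver 3, where 47.0% of expressed genes were above theirs. Their median deviation in liver 3 on the log2(FPKM + 1) scale was -0.14, against -0.01 for all expressed genes. The deviations ran from -0.09 for Nfe2l2 to -0.37 for Hmox1 and -0.41 for Gclc. Liver 3 was the lowest liver for 7 of the 9, the exceptions being Srxn1 (lowest in liver 2) and G6pdx (lowest in liver 1), and it was the lowest for 31.4% of expressed genes. When the libraries were scaled by their median ratio or to equal sums, Nfe2l2 was lowest in liver 4 instead, and the count of members above their mean in liver 3 was again 0. In the other livers the set was divided. Liver 1 had 5 of 9 above the mean (47.2% of expressed genes), liver 2 had 6 of 9 (45.1%) and liver 4 had 6 of 9 (60.8%). With libraries scaled to equal sums, liver 4 had 5 of 9 and 37.3% of expressed genes. Because deviations are taken from the mean of the same livers, a low liver 3 lifts the other 3, and without liver 3 the count in liver 1 was 3 of 9.

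The members that were highest in liver 1 were Nfe2l2, Nqo1 and Srxn1, that is 3 of 9, and liver 1 was the highest for 17.9% of expressed genes. Nqo1 and Srxn1 each lay 0.29 and 0.30 above their mean there. Gclm, Txnrd1 and G6pdx had another arrangement, with livers 2 and 4 high and livers 1 and 3 low. Keap1 was above its mean in liver 4 and below it in the other 3 livers. Of the 9 genes, 2 had 1 liver set apart by Dixon's ratio (the gap to the nearest liver divided by the range, against its 95% critical value for 4 samples), and 5.64% of expressed genes did. These were Gclc (0.909) and Hmox1 (0.886), both with liver 3 low, a form of the call made for 0.863% of expressed genes. The liver and direction of that form were taken from these 2 genes, so 5.64% is the share to set beside the count. With libraries scaled to equal sums the ratios were 0.751 for Gclc and 0.736 for Hmox1, below the critical value, and that of Srxn1, with liver 1 high, was 0.947.

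**Figure D3:**
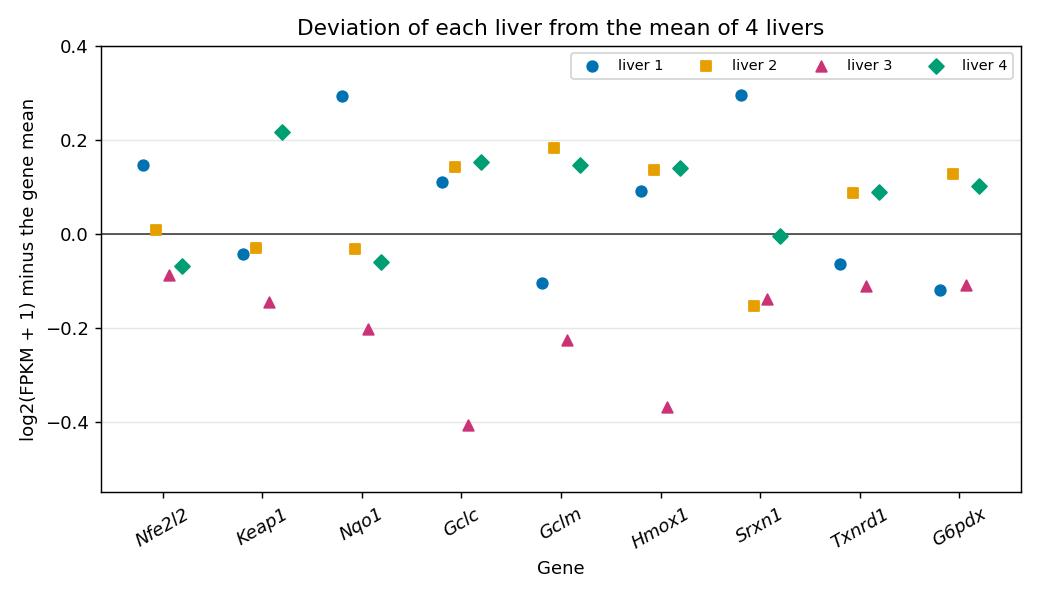
Difference of log2(FPKM + 1) in each liver from the mean of the 4 livers, by gene. Symbols are livers and the line at 0 is the gene mean. Liver 3 is below the line for all 9 genes, at -0.41 for Gclc and -0.37 for Hmox1, and liver 1 is highest for Nfe2l2, Nqo1 and Srxn1.

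Markers of other liver cells were measured in the same libraries, since fewer cells of a type and less RNA per cell cannot be told apart in whole tissue. The 8 macrophage markers, 7 of them expressed, summed to 186, 245, 183 and 264 FPKM in livers 1 to 4. In liver 3 their median deviation was -0.26, 1 of the 7 was above its mean and 5 had their lowest value. In liver 1 the median deviation was -0.21, 0 of the 7 were above their mean and 2 had their lowest value. The sum is carried largely by Lyz2, at 94.9, 127, 100.4 and 135 FPKM, while Cd68 was at 25.2, 29.6, 19.8 and 32.3 FPKM. Among markers of Kupffer cells, the resident macrophages of the liver, Clec4f was at 10.001, 11.1, 8.39 and 11.7 FPKM, near its mean in liver 1 and lowest in liver 3, as Hmox1 was. Vsig4, at 6.38, 8.34, 6.13 and 9.94 FPKM, and Cd5l, at 33.3, 46.2, 29.8 and 56.2 FPKM, were lowest in liver 3 as well, with liver 1 little above it. Hmox1 was at 12.1 FPKM in liver 1 and 8.50 FPKM in liver 3. Rows of red cell genes (Hba-a1, which has 2 rows, and Alas2) summed to 1076, 829, 427 and 705 FPKM, lowest in liver 3, although Alas2 alone was highest there at 64.0 FPKM. The summed hepatocyte markers were 20087, 18732, 18956 and 23773 FPKM, lowest in liver 2. This sum is carried largely by Apoa1 and Ttr, and the hepatocyte markers were divided in liver 3. There 4 of the 7 were above their mean, Cps1 (748 FPKM) and Hnf4a (156 FPKM) were highest, and Ttr (4452 FPKM) was lowest. The 5 endothelial markers summed to 38.9, 49.9, 41.9 and 50.01 FPKM and the 6 stellate cell markers to 199, 259, 166 and 188 FPKM. The 4 cholangiocyte markers summed to between 17.6 and 21.9 FPKM and the 4 lymphocyte markers to between 3.55 and 6.18 FPKM. Of all these markers in the table, 0 were listed at 0. The acute phase genes Saa1, Saa2, Lcn2 and Orm2 were highest in liver 2 and lowest in liver 3, and Saa1 was at 139, 2135, 45.6 and 131 FPKM. The part of these differences in the low Gclc and Hmox1 of liver 3 was not tested.

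**Figure D4:**
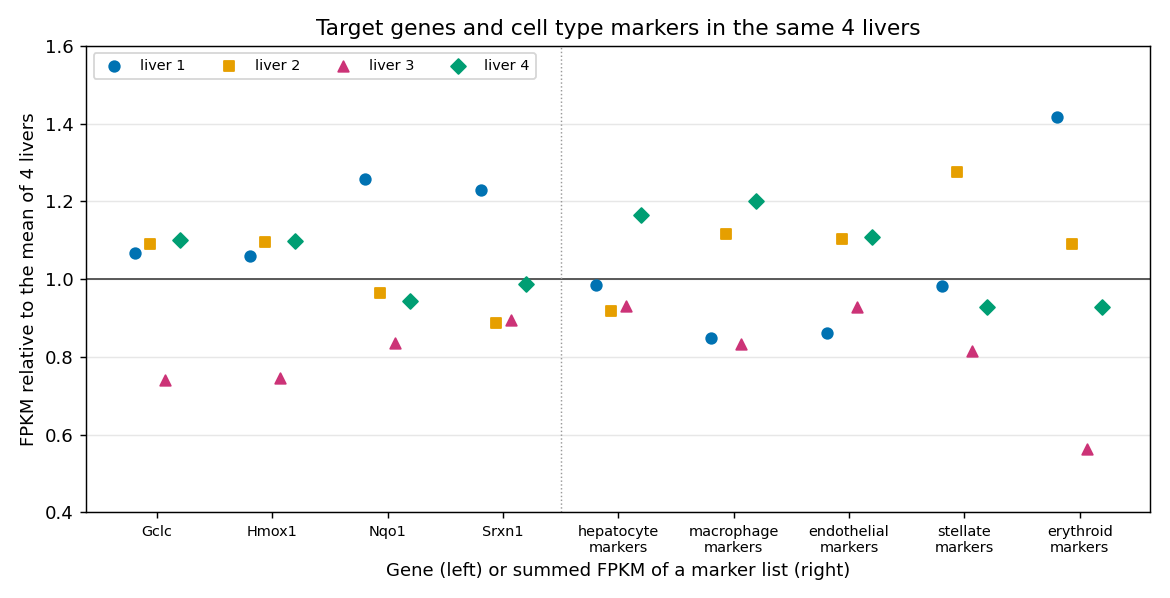
FPKM relative to the mean of the 4 livers for 4 target genes (left of the dotted line) and for the summed FPKM of 5 marker lists (right). Symbols are livers. Gclc and Hmox1 have liver 3 alone below the line, and the summed macrophage markers, of which Lyz2 is the largest part, have liver 1 (186 FPKM) and liver 3 (183 FPKM) below it.

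Other genes of the pathway were examined as 6 lists of 58 genes, all in the table, of which 53 were expressed. Over these 53 the median SD was 0.16, as it was over all expressed genes, and 21 were lowest in liver 3, as were 31.4% of expressed genes. Among genes that act on NRF2 itself, 11 of 12 were expressed. Sqstm1, which encodes the KEAP1-binding autophagy receptor p62, was the highest at 158 ± 14.9 FPKM (SD, n = 4), and Cul3, the scaffold of the ligase that KEAP1 recruits, had 29.6 ± 4.003 FPKM (SD, n = 4). Of the 3 genes of small MAF partners, Maff and Mafk had the widest spread among the 11 expressed genes of the list (SD 0.39 and 0.25), and Mafg was steadier (0.12). Maff was at 4.24, 5.02, 2.61 and 2.501 FPKM, so livers 1 and 2 were high and the range was 2.01-fold, and Mafk was at 9.40, 6.81, 5.91 and 7.11 FPKM, highest in liver 1 and lowest in liver 3.

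Of the glutathione genes, 6 of 9 were expressed. Oplah, which returns oxoproline to glutamate, had 49.3 ± 4.28 FPKM, and Gss, which completes glutathione synthesis, had 35.3 ± 3.91 FPKM (each SD, n = 4), so both lay below Gclc and Gclm in mean level. Glrx, a glutaredoxin, was at 23.7, 20.7, 24.5 and 27.4 FPKM. Chac1, which degrades glutathione and is a known stress response gene, was at 2.11, 2.47, 3.99 and 6.21 FPKM, highest in liver 4. The 3 below 1 FPKM were the cystine transporter gene Slc7a11, at most 0.0855 FPKM in any liver, Ggt1, at most 0.251 FPKM, and Gpx2, at most 0.410 FPKM. Slc7a11 and Gpx2 are both known NRF2 targets.

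All 7 thioredoxin genes were expressed. The peroxiredoxins Prdx1 and Prdx6, which reduce peroxides, had 679 ± 95.3 and 341 ± 31.4 FPKM (each SD, n = 4). Prdx1 was at 663, 717, 555 and 781 FPKM in livers 1 to 4, lowest in liver 3. Txn2, the mitochondrial thioredoxin, was at 141, 109, 153 and 160.3 FPKM and was lowest in liver 2. Sesn2, a stress-induced regulator of nutrient signalling, was at 4.03, 2.94, 2.42 and 2.29 FPKM, highest in liver 1. Of the list, 4 of 7 genes were lowest in liver 3, as were 31.4% of expressed genes.

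The 7 genes listed for NADPH and the pentose phosphate pathway were all expressed. Idh1, Me1 and Pgd encode enzymes that form NADPH, and the others belong to other steps of that pathway. Of the 7, 5 were highest in liver 1, the highest liver for 17.9% of expressed genes, and Idh1 was highest in liver 4. Idh1, cytosolic isocitrate dehydrogenase, had the highest mean, 237 ± 15.9 FPKM (SD, n = 4). Me1, malic enzyme, was at 138, 119, 93.3 and 101 FPKM in livers 1 to 4. Pgd, which acts further along the pentose phosphate pathway than glucose-6-phosphate dehydrogenase, was at 49.8, 42.9, 36.4 and 37.5 FPKM. Both were highest in liver 1 and lowest in liver 3. G6pdx, at 3.47 FPKM, was lower in mean than each of these, and its liver 1 value was its lowest.

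Of the 6 genes of haem and iron handling, all were expressed. The ferritin genes Ftl1 and Fth1, whose products store the iron that haem oxygenase releases, had 4981 ± 726 and 1695 ± 193 FPKM (each SD, n = 4). Ftl1 was at 4804, 5618, 4031 and 5472 FPKM in livers 1 to 4, lowest in liver 3 as Hmox1 was. Blvrb, a biliverdin reductase, was at 154, 95.3, 132 and 169 FPKM, lowest in liver 2, and the iron exporter gene Slc40a1 was at 25.5, 36.2, 29.5 and 44.3 FPKM, lowest in liver 1.

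Of the 17 detoxification genes, 16 were expressed and 9 of these were highest in liver 1, the highest liver for 17.9% of expressed genes. Of the 16, 2 were above their mean in liver 2, with a median deviation of -0.21, against 45.1% and -0.02 over all expressed genes. The glutathione transferase genes Gstm1 and Gsta3 were the most abundant, at 1928 ± 367 and 983 ± 133 FPKM (each SD, n = 4). Gsta1 was at 5.26, 2.18, 1.88 and 2.28 FPKM and Gstm3 at 204, 117, 144 and 100.2 FPKM in livers 1 to 4, both highest in liver 1 as Nqo1 and Srxn1 were. These families hold near-identical copies, so the division of reads among them is uncertain.

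The genes whose deviations were most like those of Gclc were searched for over the 6538 genes whose mean reached 5 FPKM, by the largest difference in any of the 4 livers. They were Ivns1abp (largest difference 0.02 on the log2 scale), Dsc2 (0.03) and Ebag9 (0.04). Hmox1 came 5th, at 0.04. For Nfe2l2 the closest were Snrk (0.02), Fbxo7 (0.02) and Gm2a (0.03), and the closest member was Nqo1, in place 778 at 0.15. With 4 livers such likeness is a description of these libraries.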

How the data were processed

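Liver RNA of 4 mice was sequenced as poly(A)-enriched libraries. The submitters' processing notes name mm10, FastQC 0.10.1, Trim Galore 0.6.3, cutadapt, STAR 2.7.6a and Cufflinks 2.2.1, without saying which step each made. The authors' deposited values carry no unit in the header and were taken to be FPKM, normalised before deposit for transcript length and library size. This rests on the values and on identifiers of the Cufflinks form. Columns were matched to livers by the sample descriptions, and 0 were left over. Starts were raised by 1, since 32.0% of 22666 symbols then equalled the GENCODE vM21 start, against 3.10% as deposited. Depth was estimated from low values taken to be 1 fragment in genes with a single transcript, and is approximate (17.02 to 20.6 M fragments over other length corrections). Those values were sought in a preset window, which bounds the estimate, and the window was not varied. Without counts, no count test was used. Spread and deviations were computed on log2(FPKM + 1), which understates differences of genes near 1 FPKM, with Python 3.11.15, pandas 2.3.3 and numpy 2.4.6. Expressed means a mean of at least 1 FPKM.

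The members and gene lists were chosen with earlier results of these data known. The genes named are the 9 members, in each pathway list the 2 most abundant and the 2 most variable by SD among expressed genes, cell markers beside a result, and the 3 genes closest in pattern to Gclc (the member with the largest SD) and to Nfe2l2. Mafg, Slc7a11, Ggt1, Gpx2, Alb and genes sharing a span were named after their values were seen. Promoters are from RefSeq. Gclc and Hmox1 had no entry. Dixon's ratio was computed on FPKM, with log2(FPKM + 1) as an alternative, and tested on simulated data with 10541 genes: it marked 36.5% of 200 genes lowered 4-fold in 1 liver, 99.5% of those raised 4-fold, and 5.08% and 4.84% of unchanged genes. Alternatives were other scalings, pseudocounts and minimum means, and leaving out each liver.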

Additional observations from a re-analysis of the deposited data

Results flagged for a closer look

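For 2 of the 9 genes 1 liver stood apart from the other 3 by Dixon's ratio, the gap to the nearest liver divided by the range, which was above its 95% critical value for 4 samples. Gclc had a ratio of 0.909, with liver 3 at 60.7 FPKM and the other livers between 87.3 and 89.99 FPKM. Hmox1 had a ratio of 0.886, with liver 3 at 8.50 FPKM and the other livers between 12.1 and 12.5 FPKM. Chance marks about 1 in 20 groups, and 5.64% of expressed genes were marked here.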

How the results depend on the processing

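Of 98 recomputed values of the summary results, 88 kept their direction and stayed within the spread or within 1.5 times. Some of the 88 could not change. Scaling a library keeps the order of genes within it, and lifting the minimum mean adds nothing where all 9 genes already pass it. The median level of the 9 genes, 20.4 FPKM, was 38.1 after scaling each library to the same sum as TPM has, which changes the unit, and between 19.3 and 21.1 FPKM when a liver was left out. The median SD, 0.20, was 0.13 with a pseudocount of 5 (all expressed genes 0.11), 0.17 with equal sums (0.18) and between 0.13 and 0.21 with a liver left out. The count with a highest to lowest ratio of at least 1.5, 1 as deposited, was 0 under both other scalings and between 0 and 1 with a liver left out. The share of expressed genes was 28.4% as deposited, 28.2% by median ratio and 33.5% with equal sums. It was between 16.4% and 22.9% with a liver left out. The count above the mean in liver 1 was between 3 and 6, and the median deviation there between -0.032 (without liver 3, a change of sign) and 0.14. The count in liver 3 was 0 under every scaling, pseudocount and minimum mean tried and with livers 1, 2 or 4 left out. The number of genes with 1 liver apart was 1 with equal sums (Srxn1, with Gclc at 0.751 and Hmox1 at 0.736). The cause was not tested. The median deviation of all expressed genes in a liver was between -0.02 and 0.04 as deposited and between -0.04 and 0.02 under the other scalings. No comparison between groups, paired or not, was possible because the series has 1 group. Nqo1 and G6pdx, on fewer than 200 estimated fragments per liver, are limited by depth.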

Other observations

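The levels of Gclc and Hmox1 kept a nearly fixed proportion. Their ratio ran from 7.14 to 7.24 over the 4 livers, a highest to lowest ratio of 1.01, the smallest among the 36 pairs of the 9 genes. The next pairs were Gclm and G6pdx with 1.10 and Txnrd1 and G6pdx with 1.12, and the widest was Srxn1 and G6pdx with 1.73. The pair was picked out after its values were seen, so the proportion describes these 4 livers and was not tested. At the estimated depth Hmox1 rested on about 223 to 328 fragments per liver. Counting error alone would then be near 6.70% in liver 3, where Hmox1 has the fewest fragments, which is wider than the variation of the ratio.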
